A study of Drosophila melanogaster with 18 samples.

Results

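The heads of wild-type male Drosophila melanogaster were compared between day 30 and day 15 after eclosion, the stretch of adult life between young and old age. The comparison used 6 of the 18 libraries of the series, 3 at each age, and the 8921 of 10884 genes that had a normalized value of at least 10 in 3 or more of the 12 male libraries. The flies of both ages were of the w1118 line 5905, unmutated at foxo, kept at 25 °C and 60% humidity and moved to fresh vials every other day. The series also holds 3 male libraries each at day 3 and day 45, and 3 wild-type and 3 foxo-/- female libraries at day 3, and its stated aim was to find genes that foxo regulates and follow them over age. Nothing in the labels says that the libraries of an age came from separate cultures, so a p-value reflects only how these libraries vary, which may be technical.

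In flies, ageing is accompanied by rising expression of antimicrobial peptides, which the fat body and blood cells secrete when the Toll or Imd pathway is switched on. Metallothioneins bind copper, zinc and cadmium, and heat shock proteins and endoplasmic reticulum chaperones hold or refold damaged proteins. In males, the roX RNAs guide the dosage compensation complex, which raises transcription of the single X chromosome. FOXO is the transcription factor that insulin signalling keeps out of the nucleus, and it drives genes of growth arrest and stress resistance.

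The male table gave 1 value per gene and library, and whole reads could be recovered from it: 2999956 to 4102364 reads per library over the 12 libraries, with 1 read worth 0.835 to 1.22 normalized units. The 10 genes with the most reads took 14.4% to 14.9% of each library at day 15 and 12.9% to 14.4% at day 30. On the first principal component, which held 55.8% of the variance, the day 15 libraries lay from -4.62 to 1.32 and the day 30 libraries all at or above 6.91, with day 3 below and day 45 above. Markers of neurons (elav, nSyb, brp), photoreceptors (ninaE, trp, chp), glia (repo, Gs2, Eaat1), muscle (Mhc), hemocytes (Hml, NimC1) and males (roX1, roX2) were detected in all 6 libraries. The fat body marker apolpp was at or above 18135 in each, while Yp1 and Lsp2 were at or below 17.8. Yp1 encodes a yolk protein of females, so its level in males is no measure of fat body. Genes of the male reproductive tract and gut were low at both ages. The summed value of 15 genes of the male reproductive tract was 13.4 to 61.0 at day 15 and 2.10 to 15.9 at day 30. The gut markers Mal-A1, alphaTry, betaTry and Jon25Biii were at or below 27.6 in each of the 6 libraries. For alphaTry and betaTry, replicate 3 was the highest library of each age. The ovarian genes summed to 10.5 to 21.1, which in males is no check of body tissue. Because whole heads were measured, fewer cells of a type and less RNA per cell cannot be told apart in any result given here.

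From day 15 to day 30 the changes were few and small. With limma and Benjamini-Hochberg adjustment, 171 of the 8921 genes passed an adjusted p of 0.05, which is 1.92%: 82 were higher at day 30 (0.919%) and 89 lower (0.998%), and 1406 had an unadjusted p below 0.05. The median absolute change of the called genes was 0.50 on the log2 scale, or 1.42-fold, and 117 of the 171 changed by less than 1.5-fold. Those of at least 2-fold were 16 risen and 2 fallen genes. In 170 of the 171 the 3 libraries of one age all lay above the 3 of the other, which was so for 22.6% of all genes tested; the exception was BomS2. The plot of change against level shows that the calls of at least 2-fold were mostly rises. These rises include MtnD, PGRP-SC2 and CR43086, which passed the filter for testing only through days 30 and 45. At a filter of 50 there were 7 such rises and 0 such falls, and with DESeq2 on recovered reads 3 and 0.

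**Figure D1:**
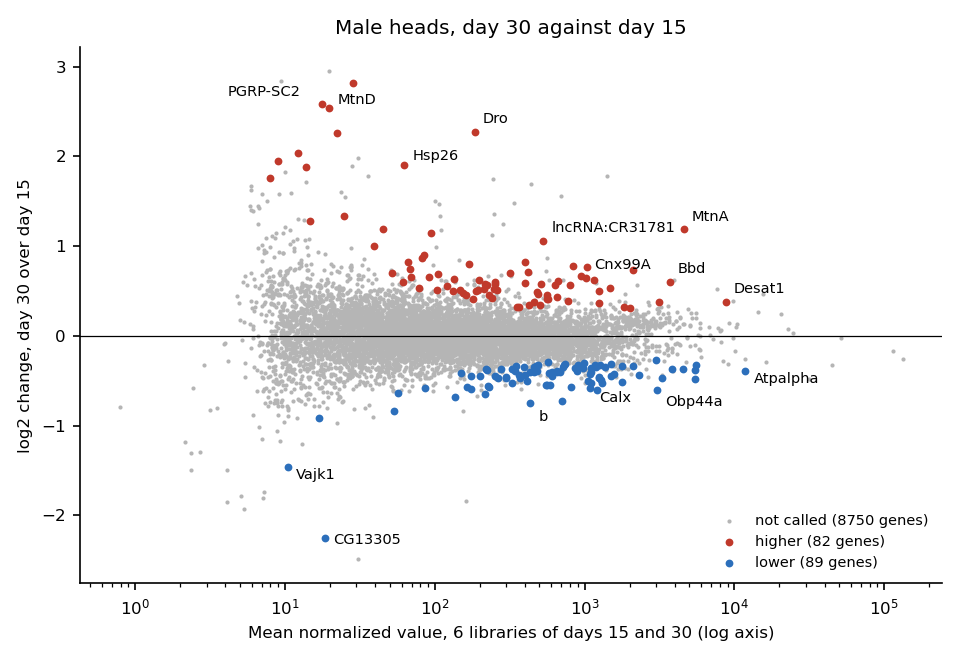
Each point is 1 of the 8921 genes tested; the x axis is the mean normalized value over the 6 libraries of days 15 and 30 on a log axis, and the y axis is the log2 change of day 30 over day 15. The 82 genes called higher are red, the 89 called lower are blue and the 8750 others grey; 16 red points lie at or above a log2 change of 1 and 2 blue points at or below -1.

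The calls leaned on single libraries. Leaving out replicate 2 of day 15 left 13 calls, leaving out replicate 2 of day 30 left 22, leaving out replicate 3 of day 30 left 41, and leaving out replicate 3 of day 15 left 62. Without replicate 1 of day 15 there were 100 calls. The count rose to 248 without replicate 1 of day 30, to 251 without replicate 1 of day 3 and to 293 without replicate 3 of day 45; without any other single library it lay between 122 and 153. The sign of all 171 changes was the same whichever library was left out. Of the 57 called genes chosen for description by level, size and list, 48 lost their call without replicate 2 of day 15, 45 without replicate 2 of day 30, 40 without replicate 3 of day 30, 33 without replicate 3 of day 15 and 25 without replicate 1 of day 15, so a list count of 1 or 2 given below often rests on these libraries. Of the 57, 8 kept their call without each of the 12 libraries in turn: MtnA, MtnD, Cyp4d1, Cnx99A and the noncoding RNA CR31781 among the rises, and b, Obp44a and Calx among the falls. Of these, MtnD passed the filter for testing only through days 30 and 45.

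**Figure D2:**
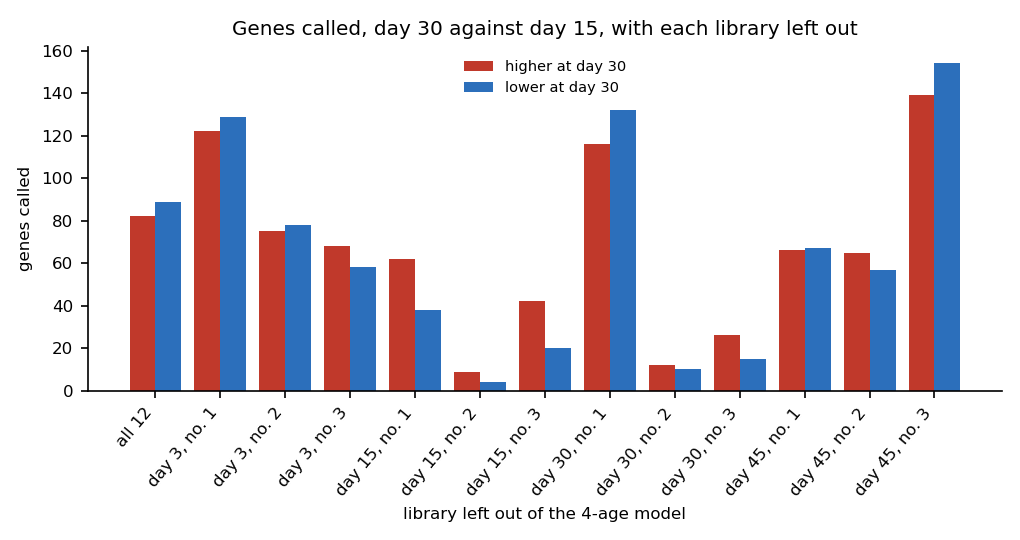
Bars give the number of genes called higher (red) and lower (blue) at day 30 than day 15 in the model over all 12 male libraries and with each library left out in turn, named by age and replicate number. The bars are shortest without replicate 2 of day 15, with 9 risen and 4 fallen genes, and tallest without replicate 3 of day 45, with 139 and 154.

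The gene with the smallest p was a long noncoding RNA, lncRNA:CR31781, on chromosome 2L at 16869346 to 16878300 of BDGP6, the assembly also called dm6. It had normalized values of 342, 336 and 348 in the 3 day 15 libraries and 728, 765 and 653 at day 30. The 3 libraries of day 15 were close to each other and all lay below those of day 30. The change was 1.06 on the log2 scale, on which a value of 1 is a doubling (SE 0.08, limma adjusted p = 3.96e-06). Its mean was 234 at day 3 and 896 at day 45, so its means were ordered by age over the 4 ages. The change from day 15 to 30 did not pass the test of its difference from the earlier change (limma adjusted p = 0.165) or from the later one (limma adjusted p = 0.122).

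Every list count below stands against 0.919% of all genes tested called higher and 0.998% called lower. Peptides that the humoral immune response secretes were the gene list with the most rises. Of 26 tested members 11 rose and none fell, where 0.919% of all genes tested rose; the median log2 change of the list was 0.71 against -0.00 over all genes, and all 26 values were above 0. The libraries summed over the list to 7385 to 8885 at day 15 and 11769 to 14937 at day 30. The fat body, which secretes such peptides, is marked by apolpp, with values of 19132, 18135 and 19016 at day 15 and 19235, 23723 and 24192 at day 30. Its ages did not overlap, it did not pass the test (log2 change 0.25, limma adjusted p = 0.227), and its part in the rise of the peptides was not tested. The count of rises was 1 without replicate 2 of day 15, 2 without replicate 2 of day 30 and 3 without replicate 3 of day 30, and between 8 and 14 without any other single library. Bomanins and Daishos are families of related short peptides whose reads could be shared between copies, and how such reads were counted was not stated in the labels.

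Dro (drosocin, a proline-rich peptide against Gram-negative bacteria; 2R, 14745961 to 14746714) had the largest rise among the called members of the list. Its values were 116, 41.9 and 29.2 at day 15 and 162, 575 and 182 at day 30. Replicate 2 of day 30 stood far above the others, and replicate 1 of day 15 was the closest to the day 30 libraries. The log2 change was 2.28 (SE 0.55, limma adjusted p = 0.0442), the groups did not overlap, and the mean at day 45 was 1350 ± 899 (SD, n = 3). The call was lost without any of 7 single libraries, replicates 2 and 3 of days 3, 15 and 30 and replicate 1 of day 45, with adjusted p up to 0.221.

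Dso2, a Daisho peptide of the Toll response (2R, 20870392 to 20870678), had values of 299, 263 and 312 at day 15 and 464, 528 and 553 at day 30. The lowest day 30 library was well above the highest day 15 library, for a log2 change of 0.82 (SE 0.13, limma adjusted p = 0.00538) whose call ended only without replicate 2 of day 15 (adjusted p = 0.0576). Its neighbour Dso1 rose by 0.73, from 1582 ± 208 to 2638 ± 448 (SD, n = 3, limma adjusted p = 0.00996). The other 8 were Bomanins, secreted peptides induced by Toll: BomBc3, BomS5, BomS3, BomS6, BomBc2, BomT2, BomS2 and BomT3, with log2 changes of 0.57 to 0.72. BomS3 had values of 632, 714 and 850 at day 15 and 992, 1417 and 1103 at day 30 (0.67, SE 0.12, limma adjusted p = 0.00966), with no overlap between the ages. Bbd (Bombardier, which short Bomanins need for their activity) rose by 0.60, from 2931 ± 227 to 4471 ± 597 (SD, n = 3, limma adjusted p = 0.0146). That call ended without replicate 2 of day 15 and without replicates 2 and 3 of day 30.

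None of the tested diptericins, attacins and cecropins passed the test. They were part of the 15 tested members of the list that were not called, whose changes were all above 0. Members of the list were not compared by pathway. DptA (diptericin) had values of 140, 32.5 and 29.2 at day 15 and 155, 155 and 123 at day 30, so that replicate 1 of day 15 lay among the day 30 libraries (log2 change 1.47, limma adjusted p = 0.148). The cecropin CecA2 had the highest fitted change of the list, 2.95, on values of 22.9, 0 and 1.67 against 29.9, 20.1 and 44.1, again overlapping, (limma adjusted p = 0.12).

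Receptors and enzymes that recognise bacterial wall material included 2 rises among 12 tested members (median 0.24), where 0.919% of all genes tested rose. PGRP-SA, the circulating receptor upstream of Toll, had 47.7, 46.1 and 51.8 at day 15 and 68.7, 80.2 and 73.5 at day 30 (log2 change 0.60, limma adjusted p = 0.0448). PGRP-SC2, an amidase that cuts peptidoglycan, rose by 2.58 from 4.77, 2.09 and 5.01 to 14.9, 52.1 and 26.2 (limma adjusted p = 0.0108), on 2 to 6 reads per library at day 15 and with a near-identical family member nearby. Neither pair of groups overlapped. The calls of both ended without replicate 2 of day 15 or replicate 2 of day 30, and that of PGRP-SA also without 5 further libraries. PGRP-SC2 passed the filter for testing only through libraries of day 30 and later. Its rise, which the count of 2 includes, is therefore not independent of the filter. None of 25 tested members of the intracellular Imd and Toll pathways passed (median 0.11, range -0.13 to 0.30), and none of 9 members of the JAK/STAT pathway and its Turandot targets did (median 0.21, all above 0). vir-1, a gene induced by viral infection, rose from 2724 ± 81.6 to 3544 ± 93.7 (SD, n = 3; log2 change 0.38, limma adjusted p = 0.0181). In the hemocyte and melanization list, 1 of 21 fell and none rose (median 0.06): Pxn (peroxidasin, which crosslinks the extracellular matrix) at -0.35. The summed value of that list was 6177 to 6462 at day 15 and 5760 to 6569 at day 30.

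**Figure D3:**
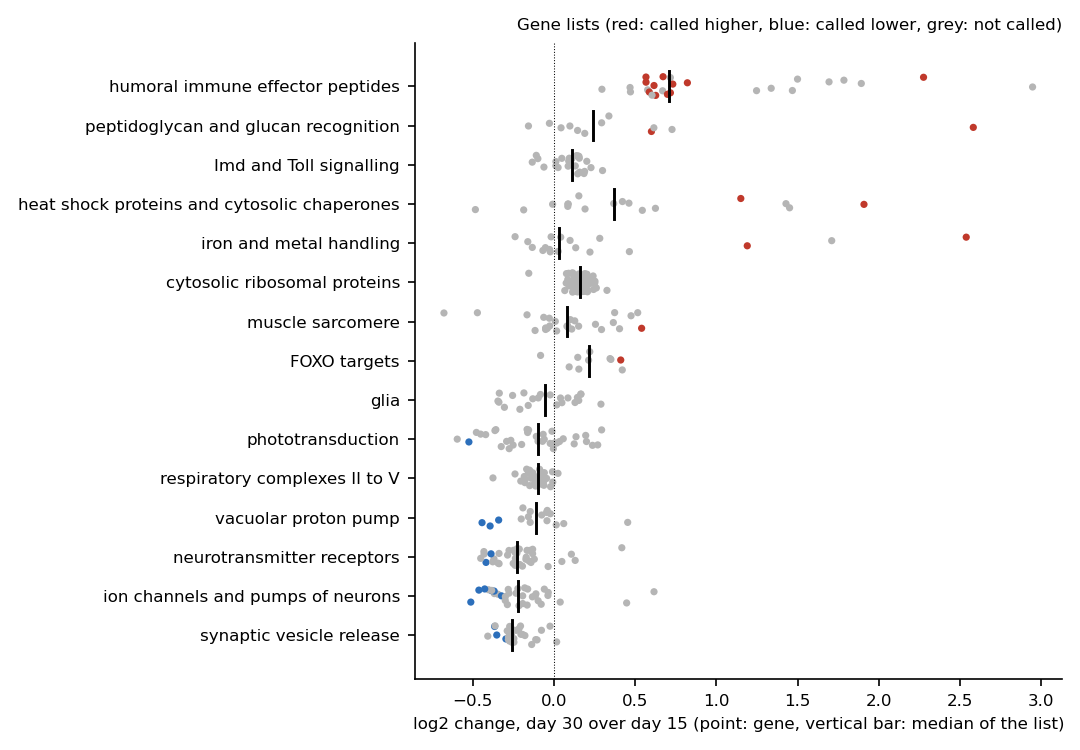
Each point is a tested gene placed by its log2 change of day 30 over day 15, by gene list; red points were called higher, blue lower and grey not called, and the vertical bar is the list's median. The humoral immune peptides all lie right of 0 with a median of 0.71, while synaptic vesicle, ion channel and receptor genes lie mostly left of it with medians of -0.26, -0.22 and -0.23.

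The 2 called metallothioneins had their highest mean of the 4 ages at day 30. MtnA (3R, 9783407 to 9784370) had values of 2949, 2801 and 2474 at day 15 and 4401, 7433 and 7416 at day 30. Replicate 1 was the lowest of the day 30 libraries and still lay above all of day 15. The change was 1.19 (SE 0.17, limma adjusted p = 0.00393), and the mean at day 45 was back at 3473 ± 610 (SD, n = 3). MtnD, another metallothionein on 3R (20534962 to 20535301), had 4.77, 7.33 and 3.34 at day 15 and 28.9, 44.1 and 29.4 at day 30, from 4 to 7 reads and 28 to 44 reads per library. It rose by 2.54 (SE 0.37, limma adjusted p = 0.00393), and its means at day 3 and day 45 were 6.70 ± 2.78 and 10.8 ± 3.84 (SD, n = 3). MtnD reached a value of 10 only at day 30 and in replicate 2 of day 45. It therefore entered the test only through those ages, and its rise is not independent of the filter. These genes are short, and whether reads were shared between metallothionein genes was not tested. MtnA and MtnD were the rises among 18 tested genes of iron and metal handling (median 0.03), where 0.919% of all genes tested rose. None of the 18 fell. MtnE, with 2.86, 6.28 and 8.35 against 12.9, 34.1 and 17.8, missed the threshold (1.71, limma adjusted p = 0.07).

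Heat shock genes gave 2 rises and no fall among 17 tested (median 0.37), where 0.919% of all genes tested rose. Hsp26, a small heat shock protein (3L, 9376418 to 9377427), had 22.9, 17.8 and 29.2 at day 15 and 166, 43.1 and 96.6 at day 30, a wide spread at day 30 with all 3 above day 15. The log2 change was 1.91 (SE 0.35, limma adjusted p = 0.0109), and the call ended without replicate 2 of day 15 or replicate 3 of day 30. Hsp68, an inducible chaperone of the Hsp70 family that shares sequence with its relatives, had 64.0, 60.7 and 41.8 against 213, 84.2 and 102 (1.15, limma adjusted p = 0.0497); its call ended without any of 9 single libraries, every one but replicates 1 and 3 of day 3 and replicate 3 of day 45. In both genes replicate 1 was the highest day 30 library. Hsp70Bb and Hsp70Bc had their highest day 15 to 30 values in the same library, 24.9 and 14.9, and did not pass.

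Cnx99A (calnexin, a chaperone of the endoplasmic reticulum that rhodopsin needs to mature; 3R, 29315254 to 29319644) had 835, 772 and 783 at day 15 and 1289, 1156 and 1302 at day 30. The ages were far apart relative to the spread within each, with a log2 change of 0.65 (SE 0.08, limma adjusted p = 0.0029). Its means at day 3 and day 45 were 865 ± 80.4 and 881 ± 73.1 (SD, n = 3), so day 30 stood above the 3 other ages. It was the 1 rise among 25 tested genes of folding and stress in the endoplasmic reticulum (median 0.12, none fell). None of 20 antioxidant enzymes passed (median 0.07), nor any of 30 glutathione S-transferases (0.01).

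Enzymes of the cytochrome P450 family included 3 rises and 1 fall among 61 tested (median 0.11). Over all genes tested the shares were 0.919% and 0.998%. Cyp4d1 had 25.8, 25.1 and 30.9 at day 15 and 58.7, 63.2 and 68.2 at day 30 (log2 change 1.19, SE 0.18, limma adjusted p = 0.00476), with no overlap. Cyp309a1 rose by 0.80 and Cyp4p2 by 0.58, and Cyp6a2 fell by 0.41. One of 18 UDP-glycosyltransferases fell and none rose (median 0.08): Ugt35B1, from 881 ± 142 to 535 ± 114 (SD, n = 3, limma adjusted p = 0.0492), a call that ended without any of 8 single libraries.

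Rises among metabolic genes were single ones. Gbs-70E, a glycogen-binding subunit of protein phosphatase 1, had 702, 483 and 653 at day 15 and 869, 1103 and 1180 at day 30 (log2 change 0.78, SE 0.16, limma adjusted p = 0.0203). Desat1, a fatty acid desaturase, rose from 7592 ± 339 to 9882 ± 298 (SD, n = 3; 0.38) and was the 1 rise among 31 tested genes of lipid metabolism (median 0.08, none fell). Mal-B2, a maltase, rose by 0.46 and was the 1 rise among 13 digestive enzymes (median 0.21, none fell), whose summed value was 2784 to 3161 at day 15 and 3137 to 4195 at day 30. CtsL1, the lysosomal protease cathepsin L, rose by 0.31, the 1 rise of 31 tested genes of autophagy and the lysosome (median 0.10, none fell). Of 21 genes of glycolysis and glycogen none passed (median 0.02).

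Act57B, a muscle actin, had 1149, 1214 and 1247 at day 15 and 1746, 1857 and 1645 at day 30 (log2 change 0.54, SE 0.12, limma adjusted p = 0.0255). It was the 1 rise of 28 sarcomere genes (median 0.08, none fell), whose summed value was 16548 to 18406 at day 15 and 18899 to 19581 at day 30. Crz, which encodes the neuropeptide corazonin, rose from 124, 121 and 119 to 196, 179 and 149, while Pal2, a lyase of the last step of peptide amidation, fell from 1241, 1281 and 1252 to 995, 944 and 910. Those were the calls among 29 genes of neuropeptides and their processing (median 0.08). Pal2 overlaps CG30183 on the opposite strand by 592 exon bases, and the kit is not said to mark strand. Obp56a, an odorant binding protein, rose by 1.00, and Obp44a (2R, 8134170 to 8135315) fell, the calls among 52 genes of smell (median 0.05). Obp44a had 3891, 3256 and 3776 at day 15 and 2142, 2442 and 2622 at day 30 (-0.60, SE 0.09, limma adjusted p = 0.00476), with no overlap, and it shares exon bases with Pabp2 on the opposite strand.

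The lists of ion channels, vesicle release and receptors, all used by neurons to signal, held falls and no rises, unlike the neuropeptide list. Ion channels and pumps had 6 falls and no rise among 34 tested (median -0.22, 31 below 0), where 0.998% of all genes tested fell. Genes of synaptic vesicle release had 3 falls and no rise among 30 (median -0.26, 29 below 0), and neurotransmitter receptors 2 falls and no rise among 37 (median -0.23, 33 below 0). For the channels and pumps the count was 0 without replicate 2 or 3 of day 15 or replicate 2 or 3 of day 30, 1 without replicate 1 of day 15, 3 without replicate 1 or 2 of day 45, and 10 without replicate 1 of day 3 or replicate 3 of day 45. The vesicle count was also 0 without each of the first 4 of these libraries, 1 without replicate 1 of day 15, 6 without replicate 1 of day 30, 8 without replicate 3 of day 45 and 9 without replicate 1 of day 3. The receptor count was 0 without any of 7 libraries (replicate 3 of day 3, all 3 of day 15, replicates 2 and 3 of day 30 and replicate 2 of day 45), 1 without replicate 1 of day 45, 4 without replicate 1 of day 3, and 6 without replicate 1 of day 30 or replicate 3 of day 45.

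Atpalpha, the catalytic subunit of the sodium-potassium pump that restores ion gradients, had 12813, 13886 and 13421 at day 15 and 10386, 10181 and 10112 at day 30 (log2 change -0.39, SE 0.10, limma adjusted p = 0.0474). Its beta subunit nrv3 had 4868, 5224 and 5356 against 3965, 4020 and 3963 (-0.37, limma adjusted p = 0.0468). In both, every day 30 library was below every day 15 library, and both calls ended without any of 9 single libraries. NaCP60E, a voltage-gated cation channel, fell by 0.51, unc80, a subunit of the sodium leak channel complex, by 0.46, kcc, the potassium-chloride cotransporter, by 0.43, and SK, a calcium-activated potassium channel, by 0.32. NaCP60E shares 173 exon bases with pain and kcc 158 with an antisense RNA, both on the opposite strand.

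At the synapse, Syt1 (synaptotagmin, the calcium sensor of vesicle release) had 4100, 4589 and 4333 at day 15 and 3508, 3289 and 3297 at day 30 (log2 change -0.37, SE 0.08, limma adjusted p = 0.0358). comt, the NSF ATPase that takes apart used SNARE complexes, had 1178, 1248 and 1288 against 1004, 1003 and 901 (-0.35, limma adjusted p = 0.0203). Rop, the Munc18 homologue needed for SNARE assembly, fell by 0.30. The ages did not overlap in any of the 3. Among receptors, the nicotinic acetylcholine subunits nAChRbeta1 and nAChRalpha4 fell by 0.42 and 0.39 (limma adjusted p = 0.0475 and 0.0497). Of the vacuolar proton pump, which acidifies vesicles and lysosomes, 3 of 16 genes fell and none rose (median -0.11), where 0.998% of all genes tested fell. The 3 were VhaM9.7-a, lower by 0.44, the accessory VhaAC45RP by 0.39 and the catalytic Vha68-1 by 0.34. That count was 0 without replicate 2 or 3 of day 15 or replicate 2 or 3 of day 30. None of the 3 neuronal markers passed the test. elav had 737, 823 and 775 at day 15 and 770, 700 and 653 at day 30, groups that overlapped (log2 change -0.14, limma adjusted p = 0.481). nSyb had 4294, 4576 and 4361 against 3906, 3671 and 3905 (-0.20, limma adjusted p = 0.211), and brp had 1824, 2111 and 1942 against 1651, 1516 and 1402 (-0.36, limma adjusted p = 0.0823). In both of these every day 30 library was the lower, and their part in the falls of the neuronal lists was not tested.

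Among 35 phototransduction genes 1 fell and none rose (median -0.10), and the count of falls was 7 without replicate 3 of day 45 and 2 without replicate 1 of day 3. The fall was Calx, the sodium-calcium exchanger that clears calcium from photoreceptors (3R, 20978183 to 21015613), with 1253, 1337 and 1298 at day 15 and 908, 866 and 928 at day 30 (-0.52, SE 0.08, limma adjusted p = 0.00476). ninaE, the main rhodopsin, had 125146, 116639 and 119727 at day 15 and 107246, 96962 and 119690 at day 30. None of 16 genes of eye pigment synthesis passed (median -0.06), none of 5 taste receptors and pickpocket channels (0.19) and none of 22 glial genes (-0.05), whose sum was 21389 to 21962 at day 15 and 19453 to 20638 at day 30.

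The gene b (black, the aspartate decarboxylase that makes beta-alanine; 2L, 13821248 to 13823979) had 503, 535 and 592 at day 15 and 274, 371 and 333 at day 30. Its highest day 30 library was well below its lowest day 15 library, for a log2 change of -0.74 (SE 0.10, limma adjusted p = 0.00393). Its means at day 3 and day 45, 536 ± 16.5 and 306 ± 31.7 (SD, n = 3), were near those of day 15 and day 30. Loxl2, a lysyl oxidase, had 73.5, 63.9 and 68.5 against 32.8, 37.1 and 45.1 (-0.83, limma adjusted p = 0.0192). The 2 falls of at least 2-fold, named after their values were seen, were in weakly expressed genes: CG13305 from 33.4, 36.7 and 23.4 to 5.97, 4.01 and 7.35, and Vajk1 from 13.4, 15.7 and 18.4 to 4.98, 5.01 and 5.25.

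Both roX RNAs fell. roX1 (X, 3857230 to 3862697) had 6066, 6289 and 6139 at day 15 and 4851, 4735 and 4599 at day 30 (-0.38 on the log2 scale with an SE of 0.07, limma adjusted p = 0.0109). roX2 (X, 11579065 to 11580432) had 193, 204 and 189 against 142, 124 and 128 (-0.57, SE 0.10, limma adjusted p = 0.00765). The ages did not overlap in either, and the roX1 means were ordered by age, from 7104 ± 142 at day 3 to 4020 ± 219 at day 45 (SD, n = 3). The roX1 call ended without replicate 2 of day 15 or replicate 2 or 3 of day 30, and the roX2 call without replicate 2 of either age. Of 8 dosage compensation genes tested these were the calls (median 0.06), where 0.998% of all genes tested fell. Over 129 noncoding RNA genes 3 rose and 3 fell (median -0.01), where 0.919% of all genes tested rose and 0.998% fell. The rises include CR43086, which passed the filter for testing only through libraries of days 30 and 45. The rise of CR43086 is therefore not independent of the filter. roX1 shares exon bases with ec on the opposite strand.

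No nuclear gene of the mitochondrial and ribosomal lists passed, and no list was tested as a group. The values of some of these lists leaned one way. None of 36 genes of respiratory complexes II to V passed (median -0.10, 35 below 0) and none of 32 of complex I (-0.07, 26 below 0). With clock transcripts as a covariate, described below, these 2 medians were -0.002 and -0.009. With each library's trend on exon length removed, also described below, they were -0.15 and -0.12. None of 20 genes of the TCA cycle passed (-0.05) and none of 70 mitochondrial ribosomal proteins (-0.04). Of 15 mitochondrially encoded genes 1 fell, the small ribosomal RNA mt:srRNA, with 427, 399 and 470 at day 15 and 313, 289 and 333 at day 30 (-0.47, limma adjusted p = 0.0228; list median -0.02). None of 76 cytosolic ribosomal proteins passed (median 0.16, 75 above 0), none of 36 translation initiation factors (0.09) and none of 33 proteasome subunits (0.06). Of 33 genes of amino acid and purine metabolism 2 fell (median 0.10): slgA, the proline dehydrogenase, by 0.32, and Hpd, an enzyme of tyrosine breakdown, from 1496 ± 169 to 1064 ± 96.3 (SD, n = 3, limma adjusted p = 0.0497). Among the 5 most abundant falls was Argk1, the arginine kinase of energy buffering, which fell by 0.32 from 6204, 6007 and 6240 to 5054, 4874 and 4850.

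The remaining lists held 1 call or none. takeout (to), a clock-controlled gene of feeding and courtship, fell from 212, 143 and 152 to 119, 93.3 and 98.7 (log2 change -0.69, limma adjusted p = 0.0343) and was the call in the list of head fat body genes (11 tested, median 0.06) as well as in that of the clock. None of 19 cuticle proteins (median -0.04), 27 genes of DNA damage and apoptosis (0.10), 36 of Polycomb, Trithorax and heterochromatin (-0.04) and 15 of small RNA pathways (0.04) passed. None of the 15 genes of the male reproductive tract and 4 of the ovary reached the level for testing.

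foxo itself did not pass the test. It had 372, 400 and 419 at day 15 and 462, 481 and 488 at day 30 (log2 change 0.26, SE 0.08, limma adjusted p = 0.0918), with no overlap between the ages, and lies on 3R at 14056945 to 14087978. Of 10 FOXO targets tested 1 rose and none fell (median 0.22): Sesn (sestrin, an inhibitor of TOR signalling) with 494, 494 and 487 at day 15 and 575, 695 and 699 at day 30 (0.41, SE 0.10, limma adjusted p = 0.0468). It shares 3097 exon bases with CG46429 on the same strand, and its call ended without any of 8 single libraries. The other targets had log2 changes of -0.08 (FoxK) to 0.42 (Ilp6, limma adjusted p = 0.159), with Thor, the inhibitor of translation 4E-BP, at 0.35 (limma adjusted p = 0.105), srl at 0.34, Lip4 at 0.22, bmm at 0.21, l(2)efl at 0.15, NLaz at 0.15 and Atg8a at 0.09. Sesn was also the 1 rise among 30 genes of insulin and TOR signalling (median 0.07, none fell).

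The changes were set beside the authors' deposited table of foxo-/- against wild-type female heads at day 3, which comes from other libraries, the other sex and another age; the direction is read as mutant over wild type from how that table is named. The mutants carry the allele foxo c431 on both chromosomes, and the authors' deposited table gives foxo itself a log2 change of 0.33 (adjusted p = 0.00465), higher in the group read as mutant. The level of foxo therefore gives no check of that direction, and were it the other way, higher and lower would be exchanged in the sentences that follow. Over 8565 genes in both, the authors' deposited table calls 6.55% higher and 7.29% lower in the mutant. Of 76 genes that rose with age and are in both, the authors' deposited table calls 12 higher (15.8%, and 2.14% of the mutant's list) and 14 lower (18.4%, and 2.24%). Of 86 that fell, it calls 5 higher (5.81%, and 0.891%) and 30 lower (34.9%, and 4.81%). In the authors' deposited table the log2 change in the mutant was 0.92 for Dso2, 0.50 for Dso1 and 1.07 for PGRP-SA, which rose with age, and -1.42 for Hpd, -0.81 for nAChRalpha4, -0.44 for NaCP60E and -0.34 for Calx, which fell. It had the opposite sign to the change with age in other described genes. It was -2.46 for Cyp4p2, -0.60 for lncRNA:CR31781, -0.85 for Sesn and -0.50 for Cnx99A, all of which rose with age. For takeout and Pxn, which fell with age, it was 1.02 and 0.31.

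The interval was also tested against its neighbours, as a difference of changes within the same model. Day 3 to 15 had 1193 calls (13.4% of 8921 genes; 531 higher and 662 lower) and day 30 to 45 had 37 (0.415%; 25 and 12). For 6 genes (0.0673%) the change from day 15 to 30 differed from that of day 30 to 45, and for 58 (0.65%) from that of day 3 to 15; these comparisons share libraries. All 6 had the more positive change between day 15 and 30: MtnA, MtnD, Hsp26, Cnx99A, Cyp309a1 and the phospholipase GIIIspla2. Hsp26 and Cnx99A differed from both neighbouring intervals. The count of genes differing from the day 30 to 45 change was 0 without replicate 3 of day 30 and 2 without replicate 2 of day 30.

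Hsp26 had a log2 change of -2.74 from day 3 to 15, 1.91 from day 15 to 30 and -1.51 from day 30 to 45, with means of 163, 23.3, 102 and 31.5 at the 4 ages. For MtnA the 3 changes were 0.66, 1.19 and -0.86, and the last 2 differed by 2.05 (SE 0.29, limma adjusted p = 0.00849). For MtnD they differed by 4.13 (SE 0.64, limma adjusted p = 0.013). The fall of Hpd followed a rise of 1.48 from day 3 to 15, and the 2 changes differed (limma adjusted p = 0.000391). Before their rise, Gbs-70E fell by 0.70, Hsp68 fell by 1.83 and Act57B fell by 0.57, and the limma adjusted p of the difference was 0.0196, 0.00746 and 0.0134. The plot of genes by age shows these shapes beside steady ones such as roX1 and Calx.

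**Figure D4:**
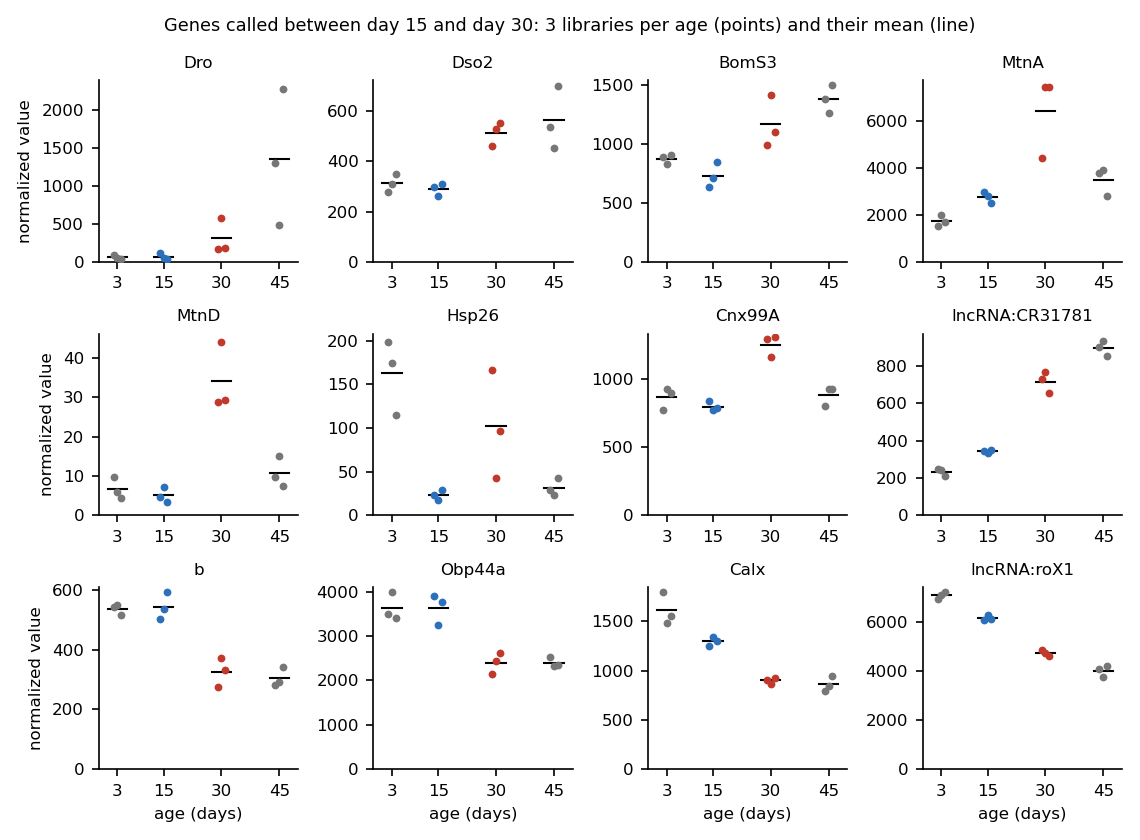
Normalized values (y axis, from 0) of 12 called genes at days 3, 15, 30 and 45 (x axis); each point is 1 library, blue at day 15 and red at day 30, and the line is the mean of 3. MtnA, MtnD and Cnx99A are highest at day 30, Hsp26 is high at days 3 and 30, and lncRNA:CR31781 and roX1 are ordered by age.

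Clock transcripts differed between libraries of the same age. timeless (tim), which with per forms the negative arm of the clock and whose level cycles over the day, had 348, 532 and 983 at day 15 and 953, 2433 and 3221 at day 30. The groups overlapped, and the 12 male libraries ran from 348 to 3687. vri, a clock repressor, had 153, 351 and 639 at day 15 and 602, 1122 and 1310 at day 30, and per had 83.1, 165 and 282 against 210, 601 and 675. The labels do not state the hour at which heads were taken. Of 15 clock genes tested, takeout alone was called, but without replicate 3 of day 45, 5 more (tim, vri, per, Pdp1 and cwo) were called higher and Pdfr was called lower; that library had 360, 228 and 102 for tim, vri and per.

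With the mean log2 level of per, tim and vri as a covariate, an alternative chosen after seeing the data, 71 genes were called higher and 39 lower; of the 82 rises 38 were also called, and of the 89 falls 28. All 171 changes had the same sign. The humoral immune peptides then had 13 rises, the channels and pumps 2 falls, the vesicle genes 2 and the receptors 1. The list medians were then 0.84 for the peptides, -0.27 for the channels and pumps, -0.25 for the vesicle genes and -0.28 for the receptors. Without the covariate they were 0.71, -0.22, -0.26 and -0.23. The median moved from -0.10 to -0.002 for respiratory complexes II to V and from -0.07 to -0.009 for complex I. For the TCA cycle it moved from -0.05 to 0.04, and for phototransduction from -0.10 to -0.01. The vacuolar proton pump had 0 falls called and a median of -0.09, against 3 falls and -0.11 without the covariate. What these moves reflect was not tested. With the covariate, Dro stood at 3.20 (limma adjusted p = 0.00517), MtnA at 0.92 (0.00963), Cnx99A at 0.68, b at -0.75 and Calx at -0.44, all called. Atpalpha at -0.39, Syt1 at -0.38, roX1 at -0.35 and roX2 at -0.45 were not called, although their changes were near those without the covariate. Also not called were Sesn at 0.29, CtsL1 at 0.19, takeout at -0.42, Hpd at -0.32 and Ugt35B1 at -0.26, the last with a change of -0.73 and a call without the covariate. Hsp68 was called at 1.75, against 1.15 without it.

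**Figure D5:**
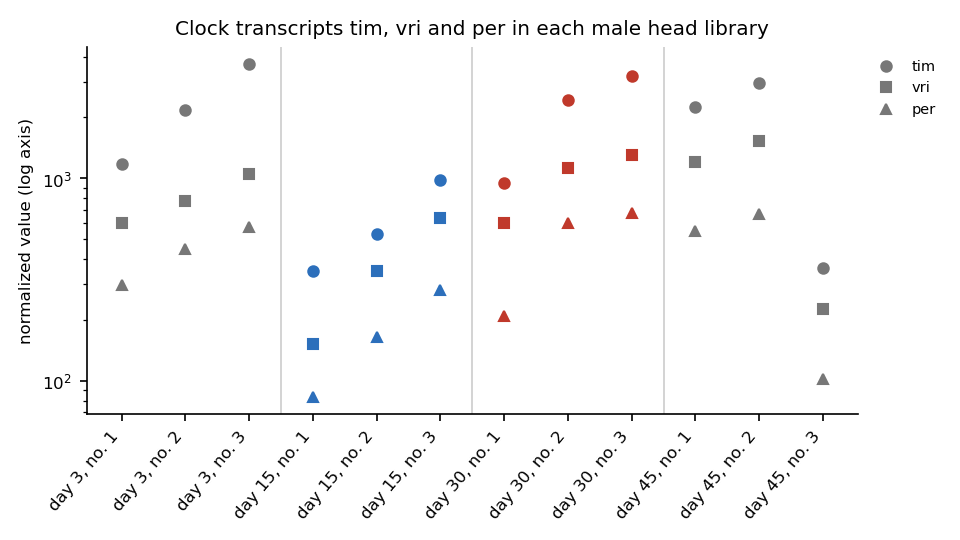
Normalized values on a log axis of tim (circles), vri (squares) and per (triangles) in each of the 12 male libraries, named by age and replicate number, day 15 in blue and day 30 in red. The 3 transcripts move together: they are lowest in replicate 1 of day 15 and high in replicates 2 and 3 of day 30, while replicate 1 of day 30 lies among the day 15 libraries.

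The length of the transcripts also moved with the change. The median exon length was 1724 bases for the risen genes, 3243 for the fallen ones and 2230 for all tested, and Spearman's rho between length and change, across 8756 genes that are not independent replicates, was -0.19. For single libraries against the mean of the other age it ran from -0.03 for replicate 1 of day 15 to -0.26 for replicate 2 of day 15. With each library's trend on length removed, likewise chosen after seeing the data, 98 genes were called higher and 101 lower. The humoral peptides had 9 rises, the channels and pumps 7 falls, the vesicle genes 6 and the receptors 4. The medians of these 4 lists were smaller in size, at 0.63, -0.16, -0.21 and -0.17, against 0.71, -0.22, -0.26 and -0.23 with the trend left in. Those of respiratory complexes II to V and complex I were larger in size, at -0.15 and -0.12, against -0.10 and -0.07. The TCA cycle stood at -0.07, the vacuolar proton pump at -0.13 and phototransduction at -0.08. Of 166 called genes with an annotated length, 147 were also called in that form.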

How the data were processed

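Polyadenylated RNA of fly heads was sequenced from libraries made with an NEBNext Ultra kit, per the labels' protocols, which give no sign that it keeps strand. The tools STAR, HTSeq and DESeq and the build dm6 are named in the submitters' processing notes without versions. The signal values of the male table are gene counts that the authors divided by a DESeq size factor per library, 1 column per library. The female table holds, as deposited by the authors, a mean normalized signal, a log2 fold change, its standard error and test statistic (used as a score) and a p-value and adjusted p-value per gene.

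Genes with a value of at least 10 in 3 or more of the 12 male libraries were kept. A gene low at day 15 could thus be kept only through the ages at which it was high. limma 3.58.1 (R 4.3.3) was fitted with its mean-variance trend to log2(value + 1), with the 4 ages sharing 1 estimate of spread, and p-values were adjusted over all 8921 genes (Benjamini-Hochberg, 0.05). Fold changes are on that scale, which understates those of low genes. Tables were handled with Python 3.11.15, numpy 2.4.6, pandas 2.3.3 and scipy 1.17.1 and drawn with matplotlib 3.10.9. The fit was tested on simulated data.

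In each library 100% of values were whole multiples of 1 read within 0.001 reads, so reads were recovered and also tested with edgeR 4.0.16 (161 genes called) and DESeq2 1.42.0 (205 called). Other alternatives were the 6 libraries alone, TMM, no filter or a filter of 50, pseudocounts of 10 and 0.5, a replicate block and leaving out each library; an exon length correction and clock transcripts as a covariate were chosen after seeing the data. Same-numbered libraries of days 15 and 30 correlated at 0.00163, 0.00195 and 0.17 in their deviations from the age means.

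Of 10884 gene IDs, 10701 matched a symbol in the Ensembl BDGP6 annotation, from which positions were taken. The comparison and 48 gene lists were chosen with earlier results of these data known. Named genes were foxo and its targets, the 8 largest rises and falls among called genes that bear a name, average 50 or more and have no overlap between the ages, the 3 largest each way under any name, the 5 most abundant calls each way, up to 3 calls of each list (or its 2 most abundant genes), and genes differing from both neighbouring intervals. The Bomanins, DptA, CecA2, MtnE, the Hsp70 genes, SK, Cyp6a2, CG13305, Vajk1, GIIIspla2, the clock genes other than takeout, and cell type markers were named outside that rule, after their values were seen.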

Additional observations from a re-analysis of the deposited data

Results flagged for a closer look

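For Hsp26 and Cnx99A the change from day 15 to 30 differed from the changes of both neighbouring intervals by a test of the difference within the limma model. The Hsp26 change was 3.41 above that of day 30 to 45 on the log2 scale (SE 0.61, limma adjusted p = 0.0429) and 4.65 above that of day 3 to 15 (SE 0.61, limma adjusted p = 0.00181). The Cnx99A change was 1.15 above that of day 30 to 45 (SE 0.15, limma adjusted p = 0.00406) and 0.76 above that of day 3 to 15 (SE 0.15, limma adjusted p = 0.0196). Without replicate 3 of day 30, the count of genes differing from the day 30 to 45 change was 0. For both genes that difference was thus not called without this library. The count was 2 without replicate 2 of day 30.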

How the results depend on the processing

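All 171 changes kept their sign under every alternative in which the gene was measured (160 genes at a filter of 50 and 166 with the length correction). Leaving out single libraries gave 9 to 139 genes higher, 4 to 154 lower, 5 to 23 at least 2-fold higher, 1 to 3 at least 2-fold lower, 0 to 8 whose change differed from that of day 30 to 45, and 18 to 120 whose change differed from that of day 3 to 15. The 6 libraries of days 15 and 30 alone gave 150 higher, 167 lower and 26 at least 2-fold higher. Among calls of 2-fold or more, a filter of 50 gave 7 rises and 0 falls, and a pseudocount of 10 gave 1 fall. DESeq2 on recovered reads gave 3 such rises, 0 such falls and 89 genes differing from the day 3 to 15 change; it gave no adjusted p for 40 of the 171 genes and called 128 of the other 131. With clock transcripts as a covariate 39 were lower, with 28 rises and 6 falls of 2-fold or more. The cause of these moves was not tested. The fit with a replicate block called 75 higher and 65 lower, 127 of them shared with the 171; the labels do not say that numbers pair libraries, and not every library correlated best with its own number. MtnA, lncRNA:CR31781, Cnx99A, Calx, Obp44a and b were called between day 15 and day 30 in all 23 alternatives. That does not cover the tests against the neighbouring intervals. Depth limits genes such as MtnD and PGRP-SC2, which had 2 to 7 reads per library at day 15. Both reached a value of 10 only at days 30 and 45, so the filter kept them only through those ages.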
